A study of Mus musculus with 6 samples.

Results

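The genes described here are 10 genes of prostaglandin synthesis, breakdown and reception, out of 53797 genes listed for MLO-Y4 cells with and without low-intensity pulsed ultrasound (LIPUS). They were chosen by name, as the rows of the deposited gene table for Ptgs1, Ptgs2, Ptges, Ptges2, Ptges3, Ptgis, Pla2g4a, Hpgd, Ptger2 and Ptger4, and all 10 were found. MLO-Y4 is a murine osteocyte-like cell line, a single clone immortalised with a viral large T antigen under the osteocalcin promoter. RNA-seq was performed on 3 LIPUS-treated and 3 Control samples, which the study describes as independent, grown on collagen-coated six-well dishes. The LIPUS group received pulsed waves of 1.5 MHz at 30 mW/cm2 for 20 min and RNA was taken 30 min later, whereas Control cells received none and sat above unplugged transducers of the same plates. For each gene and group the table gives a single FPKM (a fragment count divided by transcript length and by library size) that pools the 3 libraries, and a status that is OK where the comparison program tested the gene and NOTEST where it did not. Neither single libraries nor read counts are in it, so no SD, interval or test of replicates was computed for any value below. The authors' own test statistics and p-values for this comparison exist but were not used here. The depth behind a value cannot be read from its FPKM (the methods state only a round number of reads per sample).

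Prostaglandins are lipid signals made on demand from arachidonic acid. A phospholipase A2 frees arachidonic acid from membranes, the cyclooxygenases Ptgs1 and Ptgs2 turn it into prostaglandin H2, and terminal synthases convert that intermediate into prostaglandin E2 (PGE2), prostacyclin and the others. Osteocytes and osteoblasts release PGE2 under mechanical load, and bone cells sense it through the receptors encoded by Ptger1 to Ptger4. Of these, Ptger2 and Ptger4 couple to Gs and raise cAMP.

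Whether the genes of this pathway differed between LIPUS-treated and Control cells was asked of the pooled values. Ptgs2, Pla2g4a and Ptger4 were higher in the LIPUS group by at least 1.5-fold, and none of the 7 members with status OK was lower by that much. They encode, in this order, the inducible cyclooxygenase, an arachidonate-releasing phospholipase and a PGE2 receptor. Ptger4 lay next to the threshold, and the count was 2 where both groups were scaled to the same sum of FPKM. The other 4 genes with status OK, Ptgs1 and the PGE2 synthases Ptges, Ptges2 and Ptges3, lay within 1.5-fold. Ptgis, Hpgd and Ptger2 had status NOTEST and were at or next to 0. As background, 4.7% of the 8145 genes with status OK were at least 1.5-fold higher with LIPUS and 4.71% at least 1.5-fold lower, and the 3 of 7 members with status OK are to be read beside these shares. The median log2 ratio of the 7 members was 0.42, against 0.0042 over all genes with status OK, and 6 of the 7 ratios were above 0 as were 50.8% of all.

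**Figure D1:**
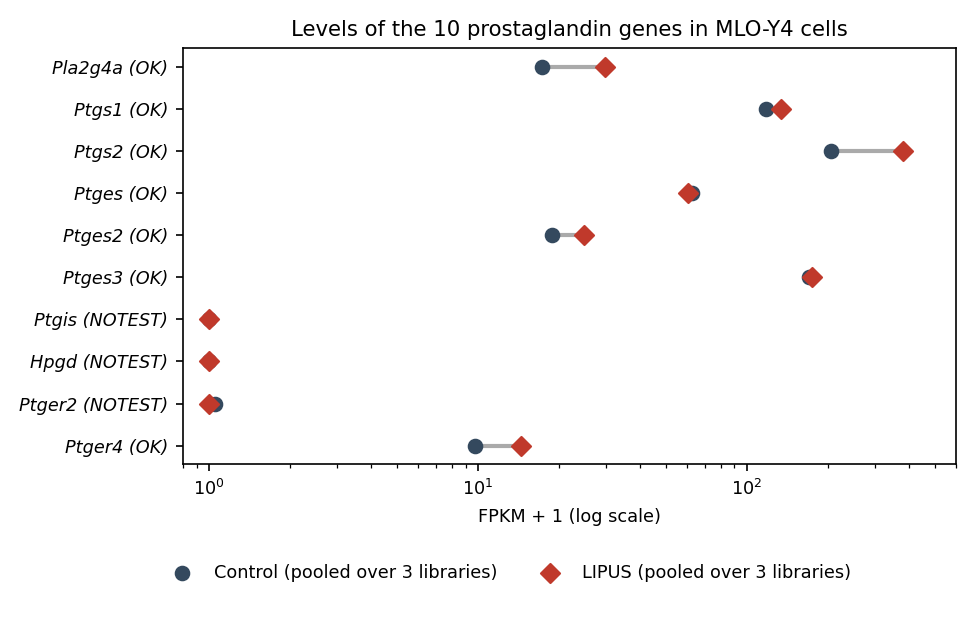
FPKM + 1 on a log scale for the 10 genes, with 1 pooled value per group (circle, Control, diamond, LIPUS), no error bars because single libraries are not in the table, and the status in brackets. Ptgs2, Pla2g4a and Ptger4 show the widest gaps between the groups, while Ptgis, Hpgd and Ptger2 sit at or next to an FPKM of 0.

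The 3 libraries of a group cannot be separated here. According to the study's text, one Control culture lay apart from the others in a principal component analysis, and leakage of ultrasound between wells of a plate was raised there. Every Control value below includes that culture, and no value can be given without it. In such bulk RNA, fewer cells with a transcript and less of it per cell cannot be told apart.

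The 250 bases before the annotated start are shown for the 3 genes past 1.5-fold, and for Ptgs1 as the other cyclooxygenase. They were taken from RefSeq (GRCm38.p6), as were promoters for 9 of the 10 genes, and capitals mark matches to any of the 8 motifs searched on both strands. The first 30 bases after the start are added for Ptgs2, because the cAMP response element core and the E-box there overlap. The windows are chr1:150099781-150100030 (plus strand) and chr1:150100031-150100060 (plus strand) for Ptgs2, chr1:149961291-149961540 (minus strand) for Pla2g4a, chr15:5244188-5244437 (minus strand) for Ptger4 and chr2:36230176-36230425 (plus strand) for Ptgs1.
Ptgs2, before the start: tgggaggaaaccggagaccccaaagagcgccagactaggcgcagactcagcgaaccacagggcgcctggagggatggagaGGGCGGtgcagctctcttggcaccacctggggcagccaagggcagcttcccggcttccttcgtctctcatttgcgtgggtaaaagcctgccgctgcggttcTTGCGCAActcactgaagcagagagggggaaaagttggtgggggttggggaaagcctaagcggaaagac
Ptgs2, after the start: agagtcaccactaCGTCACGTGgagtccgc
Pla2g4a, before the start: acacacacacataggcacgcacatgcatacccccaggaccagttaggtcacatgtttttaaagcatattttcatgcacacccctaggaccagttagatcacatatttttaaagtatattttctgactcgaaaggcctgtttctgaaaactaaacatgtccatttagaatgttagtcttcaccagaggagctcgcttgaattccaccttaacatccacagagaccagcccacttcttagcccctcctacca
Ptger4, before the start: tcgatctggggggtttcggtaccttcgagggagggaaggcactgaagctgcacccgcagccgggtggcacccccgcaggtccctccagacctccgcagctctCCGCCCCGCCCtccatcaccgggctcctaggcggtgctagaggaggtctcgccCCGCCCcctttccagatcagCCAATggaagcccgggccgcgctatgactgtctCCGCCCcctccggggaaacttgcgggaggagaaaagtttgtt
Ptgs1, before the start: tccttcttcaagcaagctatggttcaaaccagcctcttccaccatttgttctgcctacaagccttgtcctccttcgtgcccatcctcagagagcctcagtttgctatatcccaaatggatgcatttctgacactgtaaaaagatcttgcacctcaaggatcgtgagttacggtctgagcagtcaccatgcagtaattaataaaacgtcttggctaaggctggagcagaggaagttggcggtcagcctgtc

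The motifs were searched in 300 bases, 250 before and 50 after the start, for these genes and for all 32851 promoters of the RefSeq table. Ptgs2 held a C/EBP site (TTNNGCAA, in 10.8% of all promoters) from 69 to 62 bases before the start and a GC box (GGGCGG, 35.7%) from 170 to 165 bases before it. Its cAMP response element core (TGACG, here CGTCA, its reverse complement, 20.8%) covered bases 14 to 18 after the start. The E-box (CACGTG, 7.15%) covered bases 17 to 22 and so shared 2 bases with the core. The Ptger4 window held 4 GC boxes, of which those from 148 to 143 and from 143 to 138 bases before the start share 1 base, and a CCAAT box (CCAAT, 37.4%) from 75 to 71 bases before it. No motif of the 8 matched at Ptgs1 or at the Pla2g4a start shown, the remaining motifs being TATAAA (13.6%), TGANTCA (7.81%) and GCGNGGGCG (5.55%). A second Pla2g4a start in the table, at position 149922439, had a TATA box match on the strand opposite the gene and a CCAAT match. The GC content of the 250 bases was 61.6% for Ptgs2 and 66.8% for Ptger4, against 43.2% for Pla2g4a, 48% for Ptgs1 and a median of 52.4% over all promoters. The 3 genes past 1.5-fold therefore had no motif of the 8 in common, and the matches are a description of letters only.

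The first step is the release of arachidonic acid. Pla2g4a (ENSMUSG00000056220, chr1:149829618-149961290, minus strand) encodes cytosolic phospholipase A2 alpha, which cuts arachidonic acid from phospholipids when calcium rises. Its pooled FPKM was 28.7 with LIPUS and 16.4 in Control, a log2 ratio of 0.81 (1.75-fold higher). Of all genes with status OK, 171 (2.1%) had a larger ratio. Among the 3536 genes of like level, with a mean FPKM from 10 to 30, 63 (1.78%) had one.

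Over all 53797 listed genes, 37321 were at 0 in both groups. Of 20 other phospholipase A2 and related genes, 12 were at 0 in both groups and 4 more had no test. Pla2g6, which encodes a calcium-independent phospholipase, was the one gene with status OK past 1.5-fold, at 9.00 FPKM with LIPUS and 5.35 in Control (log2 ratio 0.75). At such levels, below a mean of 10 FPKM, 10.9% of genes with status OK were that much higher and 11.5% that much lower. Plaa, the activator protein with the highest level of this list, had 42.8 and 43.1 FPKM. Summed over all 20 genes, FPKM was 94.3 with LIPUS and 91.6 in Control.

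The cyclooxygenases carry the committed step. Ptgs2 (ENSMUSG00000032487, chr1:150100031-150108227, plus strand), the cyclooxygenase induced by stimuli, had 381 FPKM with LIPUS and 205 FPKM in Control. This is a log2 ratio of 0.90 (1.86-fold higher), the largest of the 10 members. Ptgs2 was already among the abundant transcripts in Control, where 420 genes with status OK had a higher FPKM, and 248 had one with LIPUS. Over all genes with status OK, 129 (1.58%) had a larger ratio, and over the 951 genes with a mean FPKM of at least 100 there were 9 (0.946%). Ratios vary less at high levels: their SD across genes was 0.25 at 100 FPKM and above, 0.28 from 30 to 100, 0.35 from 10 to 30 and 0.60 below 10. That spread is across genes within the pooled comparison and is not replicate error.

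**Figure D2:**
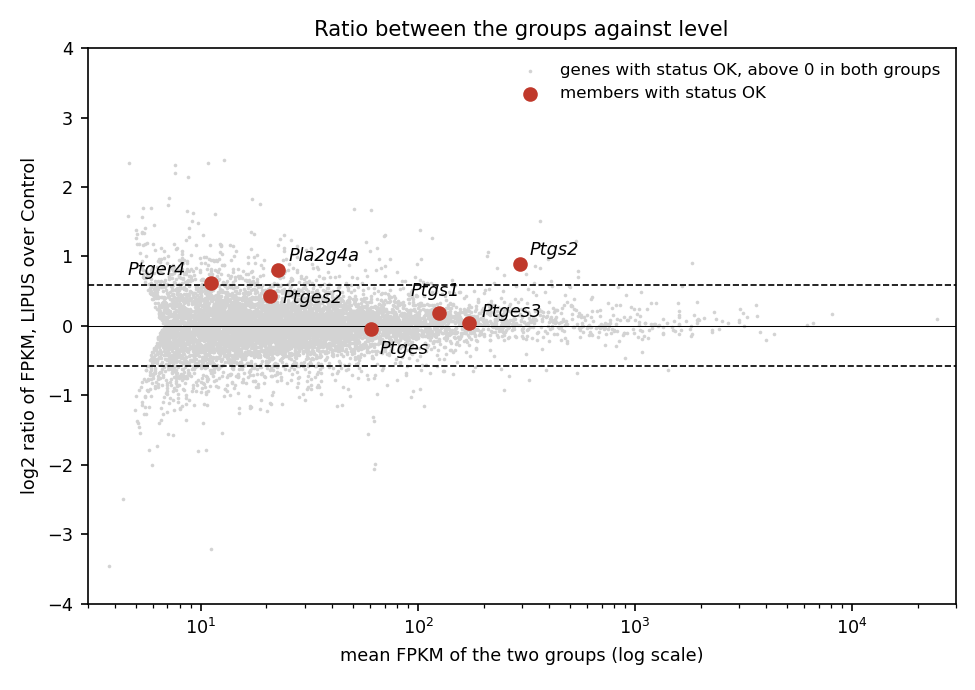
Log2 ratio of FPKM (LIPUS over Control) against mean FPKM on a log scale for 8143 genes with status OK and a value above 0 in both groups (grey), with the 7 members of status OK in red and dashed lines at 1.5-fold. The cloud narrows to the right, and Ptgs2 lies at its upper edge at high FPKM. Pla2g4a and Ptger4 lie past the upper line at a mean FPKM from 10 to 30, and 1 gene beyond the plotted range of 4 is not drawn.

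Ptgs1 (ENSMUSG00000047250, chr2:36230426-36252272, plus strand), the cyclooxygenase present in most tissues without a stimulus, had 133 FPKM with LIPUS and 117 in Control (log2 ratio 0.18, 1.14-fold). It shares 148 exonic bases with Gm43621 on the opposite strand, which had 1.28 and 2.22 FPKM. Of the summed cyclooxygenase FPKM, Ptgs2 made up 74.15% with LIPUS and 63.63% in Control. The ratio of Ptgs2 to Ptgs1 was thus 2.87 with LIPUS and 1.75 in Control, while the sum of both was 514 and 322 FPKM. Ptgs2 exceeded Ptgs1 in both groups on this per-length scale. Such within-group ratios do not depend on how each group was scaled.

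Further down, the PGE2 synthases all lay within 1.5-fold, with Ptges and Ptges3 close to equal and Ptges2 higher with LIPUS. Ptges3 (ENSMUSG00000071072, chr10:128058954-128077272, plus strand), the cytosolic synthase that is also the p23 cochaperone of Hsp90, had the most transcript of the 3, with 174 FPKM under LIPUS and 170 in Control (log2 ratio 0.04). That sign turns when each group is scaled to the same sum (log2 ratio -0.01). Its pseudogene Ptges3-ps, which may share reads with it, had 4.15 and 2.18 FPKM and status NOTEST. Ptges (ENSMUSG00000050737, chr2:30889471-30929863, minus strand) encodes the inducible microsomal synthase that works with Ptgs2, and had 59.6 FPKM with LIPUS and 61.7 in Control (log2 ratio -0.05). It was the one member of status OK with a ratio below 0. Ptges2 (ENSMUSG00000026820, chr2:32395896-32405772, plus strand), a membrane-associated synthase, had 23.9 and 17.8 FPKM (log2 ratio 0.42, 1.34-fold), and 8.93% of genes with status OK had a larger ratio.

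By fold, Ptger4 (1.53-fold) was the member nearest to the 1.5-fold line among those past it, and Ptges2 (1.34-fold) the nearest among those not past it. The summed FPKM of the 3 synthases was 258 with LIPUS and 249 in Control. Ptges3 made up 67.61% and 68.13% of it, Ptges 23.13% and 24.73%, and Ptges2 9.265% and 7.139%. With Ptgs2 higher and Ptges about level, there were 6.39 FPKM of Ptgs2 per FPKM of Ptges with LIPUS and 3.32 in Control. Ptgs2 and Pla2g4a differed between the groups by similar folds, at 13.3 FPKM of Ptgs2 per FPKM of Pla2g4a with LIPUS and 12.5 in Control.

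Apart from Akr1b3, the enzymes for other prostanoids were below 10 FPKM or at 0. Ptgis (ENSMUSG00000017969, chr2:167191805-167240604, minus strand), the prostacyclin synthase, was listed at 0 in both groups. Ptgds, Hpgds and Akr1c18, which make prostaglandin D2 or inactivate progesterone, were also listed at 0. Akr1b3, an aldose reductase with prostaglandin F synthase activity, had 74.2 FPKM with LIPUS and 83.2 in Control (log2 ratio -0.17). The thromboxane synthase Tbxas1 had 8.08 and 5.50 FPKM (log2 ratio 0.55), within 1.5-fold, and Fam213b had 1.20 and 2.69 FPKM with status NOTEST.

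**Figure D3:**
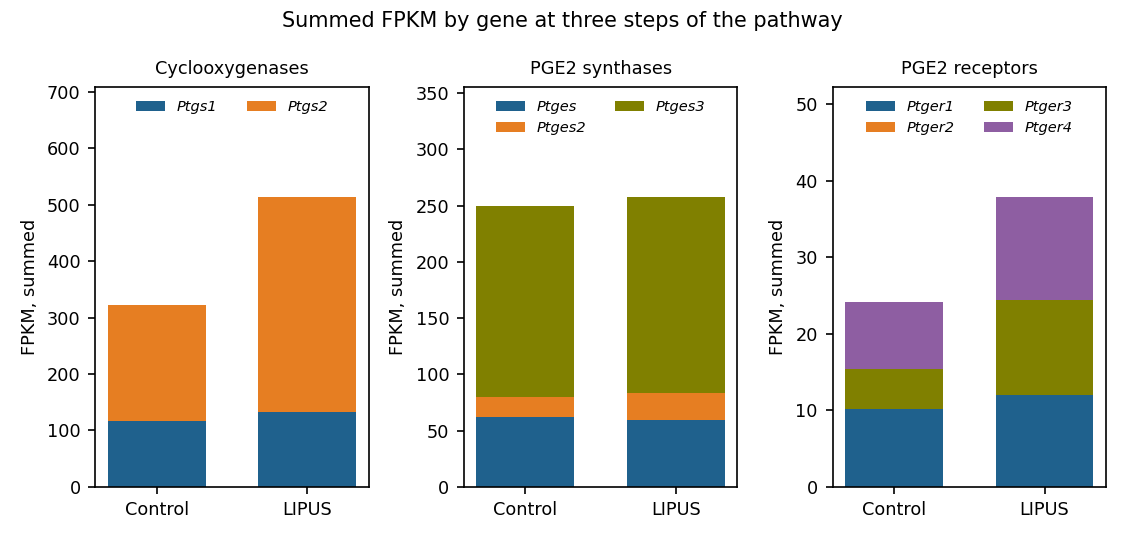
Summed FPKM (linear axis from 0) in Control and LIPUS, stacked by gene, for the cyclooxygenases, the PGE2 synthases and the 4 PGE2 receptors, each bar being 1 pooled value per gene. The cyclooxygenase bar goes from 322 in Control to 514 with LIPUS, mostly through its Ptgs2 part (176 of the difference, against 15.8 for Ptgs1), the synthase bar stands at 249 and 258, and the receptor bar goes from 24.1 to 37.9.

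Ptger4 (ENSMUSG00000039942, chr15:5206661-5244187, minus strand), the high-affinity Gs-coupled PGE2 receptor, had 13.5 FPKM with LIPUS and 8.77 in Control. Its log2 ratio was 0.62, a 1.53-fold higher value that falls under 1.5-fold with a pseudocount of 1 FPKM or when each group is scaled to the same sum (log2 ratio 0.57 each). Of all genes with status OK, 341 (4.19%) had a larger ratio, as did 134 (3.79%) of the 3536 genes with a mean FPKM from 10 to 30. Ptger4 shares 82 exonic bases with Ttc33 on the opposite strand, which had 10.3 FPKM with LIPUS and 23.3 in Control, and 1015 bases with the pseudogene Gm15937, which was listed at 0. The libraries were stranded, but whether the FPKM used the strand is not given in the sources used here, and the part of Ttc33 reads in the Ptger4 value was not tested. Ptger2 (ENSMUSG00000037759, chr14:44988195-45003820, plus strand), the other Gs-coupled receptor, was listed at 0 with LIPUS and had 0.0535 FPKM in Control, with status NOTEST.

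The remaining PGE2 receptors were also transcribed. Ptger3, the Gi-coupled receptor that lowers cAMP, had 12.5 FPKM with LIPUS and 5.14 in Control (log2 ratio 1.28, 2.42-fold), a larger ratio than that of any member with status OK. Among the 1426 genes with a mean FPKM below 10, 23 (1.61%) had a larger one. Ptger1, whose product raises calcium, had 12.0 and 10.2 FPKM (log2 ratio 0.24). In the receptor sum of 37.9 FPKM with LIPUS and 24.1 in Control, Ptger4 made up 35.51% and 36.34%, Ptger3 32.86% and 21.29%, and Ptger1 31.64% and 42.14%. Of the receptors for other prostanoids, Ptgfr for prostaglandin F2alpha had 10.3 FPKM in each group, and the prostacyclin receptor Ptgir had 5.32 and 3.88 FPKM with status NOTEST. Tbxa2r was listed at 0.272 and 0 FPKM, and the prostaglandin D2 receptors Ptgdr and Ptgdr2 at 0.

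Hpgd (ENSMUSG00000031613, chr8:56294585-56321043, plus strand), which encodes the dehydrogenase that starts prostaglandin inactivation, was listed at 0 in both groups. None of the 15 housekeeping genes looked up was at 0 in the table, and the lowest of their values was 16.5 FPKM. Those genes are well expressed, so they cannot tell whether a listed 0 such as that of Hpgd is a true absence. In all, 37321 of the 53797 listed genes were at 0 in both groups. Other genes of transport, release and breakdown were present: all 9 had status OK and all 9 lay within 1.5-fold. Among them were the gap junction and hemichannel gene Gja1, the most abundant of the list (170 and 176 FPKM), and the uptake carrier Slco2a1 (21.7 and 27.3 FPKM, log2 ratio -0.33), which was named after its values were seen.

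The other genes of the pathway were counted in 8 lists by role, 105 genes in all. Of these, 32 were at 0 in both groups, 20 had a value but no test, and 53 had status OK. Of all 53797 listed genes, 37321 were at 0 in both groups and 8145 had status OK. Ptger3, Pla2g6 and Zfp36 were at least 1.5-fold higher (5.66% of the 53) and Fads2, Crtc1, Pde4b and Zfp36l1 at least 1.5-fold lower (7.55%), shares near those over all genes given above. The median log2 ratio was 0.00297, with 27 ratios above 0 and 26 below. The median of the 7 members with status OK, 0.42, is set beside it as a description without a test.

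**Figure D4:**
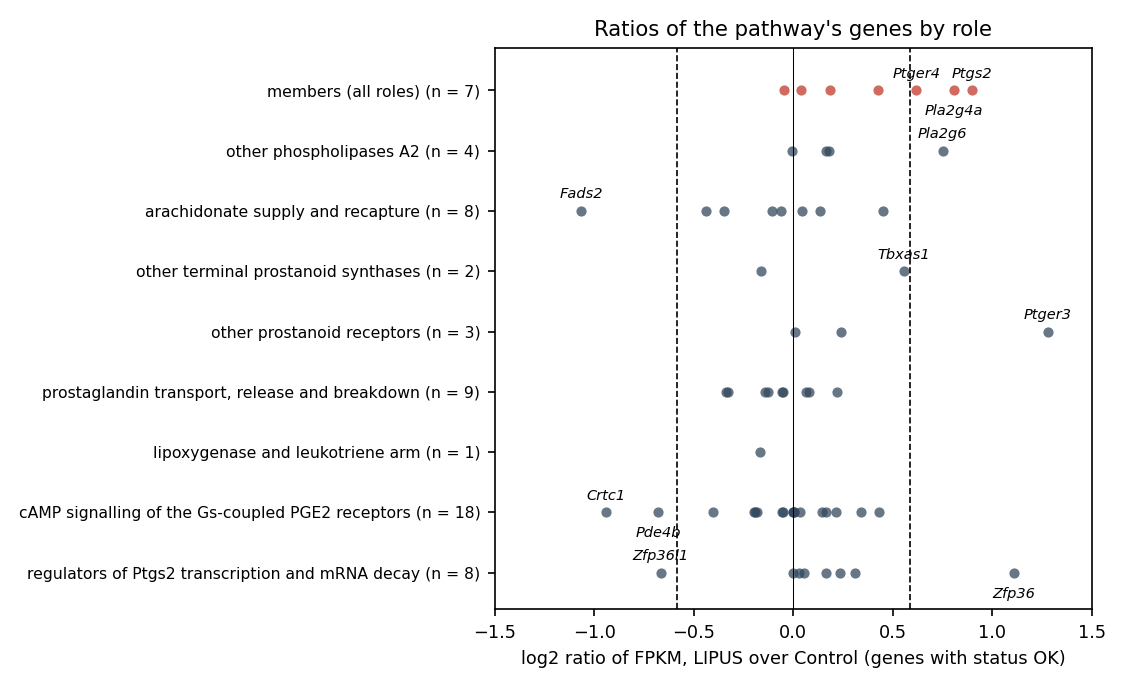
Log2 ratio of FPKM (LIPUS over Control) for every gene with status OK, 1 point per gene, in a row for the 7 members (red) and 8 rows for the other roles (dark), with dashed lines at 1.5-fold. The 53 points outside the members have a median of 0.00297, and the medians of their rows run from -0.17 to 0.24, with Ptger3, Pla2g6 and Zfp36 past the upper line and Fads2, Crtc1, Pde4b and Zfp36l1 past the lower line.

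Downstream of Ptger4, 18 of 26 cAMP signalling genes had status OK. None was at least 1.5-fold higher and 2 were lower, the CREB coactivator Crtc1 (5.06 FPKM with LIPUS, 9.74 in Control, log2 ratio -0.94) and the cAMP phosphodiesterase Pde4b (12.2 and 19.5 FPKM, -0.68). That much lower were 4.71% of all genes with status OK, 11.5% of those with a mean below 10 FPKM, as Crtc1 has, and 4.19% of those from 10 to 30 FPKM, as Pde4b has. Gnas, which encodes the Gs alpha subunit, was the most abundant at 234 and 243 FPKM. Among 10 genes for regulators of Ptgs2 transcription and mRNA decay, 8 had status OK. Zfp36, which encodes a protein that promotes decay of AU-rich mRNAs, had 23.3 FPKM with LIPUS and 10.8 in Control (log2 ratio 1.11). Its relative Zfp36l1 had 24.3 and 38.5 FPKM (-0.67). Cebpb, whose product binds C/EBP sites such as the letters found before the Ptgs2 start, was the most abundant of the list. It had 89.2 and 72.0 FPKM (log2 ratio 0.31), within 1.5-fold. Cebpd, also of this list, had 1.39 FPKM with LIPUS and 2.32 in Control (log2 ratio -0.74, status NOTEST). It was named after its values were seen. Whether either acts on Ptgs2 was not tested.

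Ptgs2 and Pla2g4a lie on the same chromosome, and their start sites are 138741 bases apart on opposite strands. No other gene between them had status OK. Ptgs2os, a noncoding gene that starts 68 bases from Ptgs2 on the opposite strand, had 1.05 FPKM with LIPUS and 0.693 in Control, with status NOTEST. On the far side of Ptgs2, Ptgs2os2 had 0.549 and 0.392 FPKM, also with status NOTEST. The next genes with status OK on that side were Odr4 (19.3 and 16.5 FPKM), Tpr (67.8 and 63.0 FPKM) and Prg4 (657 and 795 FPKM), whose folds were all below those of Ptgs2 and Pla2g4a. These neighbours were named after their values were seen.

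**Figure D5:**
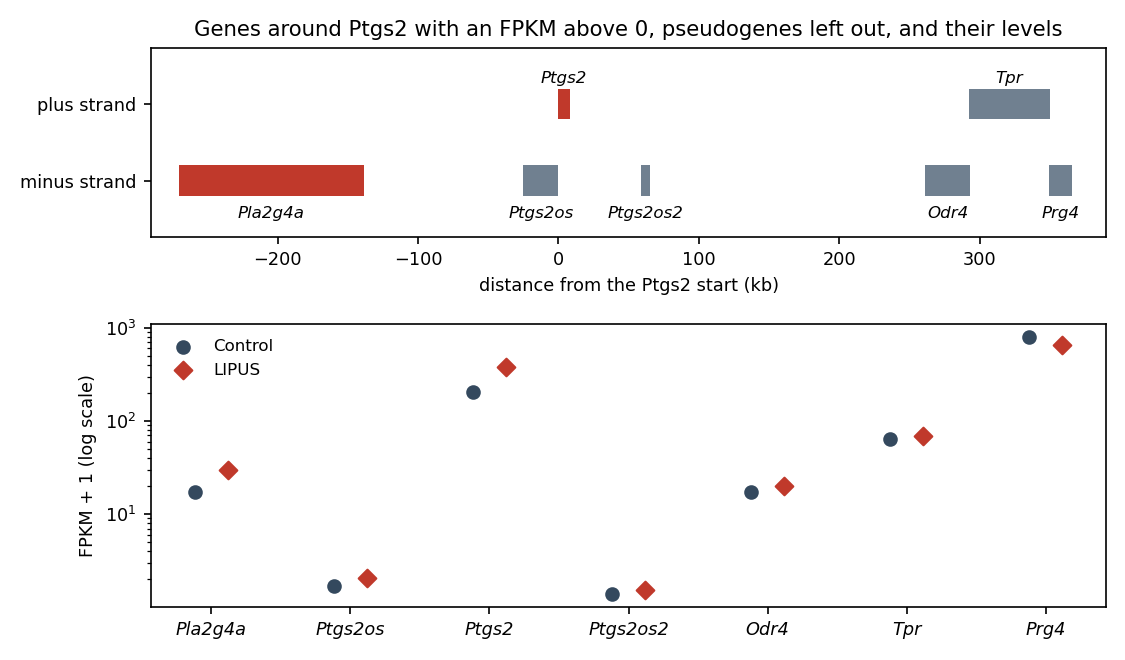
Upper panel, genes around Ptgs2 with an FPKM above 0 and pseudogenes left out, by distance from the Ptgs2 start (kb) and strand, with both members in red. Lower panel, FPKM + 1 on a log scale for the same genes in Control (circles) and LIPUS (diamonds), where the gap is widest for Ptgs2 and Pla2g4a.

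The labelled cell type was checked against marker lists. Of 9 osteocyte markers, Gja1, Cd44 (212 FPKM with LIPUS and 200.2 in Control), Pdpn (402 and 295) and Dmp1 (7.65 and 3.04, past 1.5-fold, as 10.9% of genes with a mean below 10 FPKM were) had status OK, Phex was listed at 0.19 and 0, and Mepe, Sost, Fgf23 and Dkk1, which mark mature osteocytes or their secreted signals, were at 0. Of 7 osteoblast markers, 5 had status OK and all 5 had ratios below 0, with Alpl at 190 FPKM with LIPUS and 293 in Control and Runx2 at 14.8 and 24.4 past 1.5-fold (4.71% of all genes with status OK were that much lower). The other 2, Sp7 (3.75 and 5.86 FPKM) and Bglap (1.58 and 0 FPKM), had status NOTEST. Summed FPKM was 791 with LIPUS and 675 in Control for the osteocyte list, and 5401 and 6063 for the osteoblast list. It was 13.9 and 16.0 for 7 macrophage and osteoclast markers, of which Ptprc and Adgre1 were at 0. In that list Cd14 had status OK, at 10.6 FPKM with LIPUS and 8.19 in Control, while Cd68 (1.72 and 5.32), Lyz2 (0.19 and 2.01), Acp5 (1.1 and 0.20) and Csf1r (0.233 and 0.236) had status NOTEST. Of the endothelial markers, Pecam1 was listed at 0 and 0.496 FPKM and the other 4 at 0 in both groups. The part that any of these marker differences have in the values above was not tested.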

How the data were processed

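RNA-seq of 3 LIPUS and 3 Control samples was analysed from 1 gene table with the layout of Cuffdiff. The authors trimmed reads with Trimmomatic 0.36, aligned the paired-end 100-base reads by TopHat 2.1.0 (Bowtie 2.2.6.0) on GRCm38, and deposited an FPKM per gene and group, pooled over libraries. The Cufflinks version is 2.2.1 in the methods and 2.1.1 in the submitters' processing notes. The log2 fold change, test statistic, p-value, q-value and significance columns hold the authors' own comparison and were not used. Group values were matched by their names.

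Ratios were LIPUS over Control without a pseudocount, and a gene with status OK was counted as higher or lower at 1.5-fold. The steps were tested on simulated data. Positions came from GENCODE M21 and promoters from RefSeq. Python 3.11.15, numpy 2.4.6, pandas 2.3.3 and matplotlib 3.10.9 were used. All 10 members were named, and of the pathway lists the genes past 1.5-fold, the most abundant gene of each role, and the terminal synthases and receptors of at least 1 FPKM. The synthases and receptors below 1 FPKM (Ptgds, Hpgds, Akr1c18, Tbxa2r, Ptgdr and Ptgdr2) fall outside this rule and were named after their values were seen, as were other genes so marked in the text. Members and lists were chosen with earlier results of these data known. Other pseudocounts, scalings, filters and thresholds were tried.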

Additional observations from a re-analysis of the deposited data

How the results depend on the processing

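No paired analysis was possible because the table holds no value of a single library, and for the same reason no sample could be left out in turn. With a threshold of 2-fold, 0 of 7 members were higher, beside 1.08% of all genes with status OK, and with a lower threshold (log2 ratio of 0.32) 4 were, beside 13.6%. With a pseudocount of 1 FPKM, or with both groups scaled to the same sum of FPKM, 2 members were higher (beside 4.09% and 4.05% of all genes), since Ptger4 then had a log2 ratio of 0.57. That scaling lowers every log2 ratio by 0.0457 and takes Ptges3 to -0.01. None of the 7 members counted was lower past the threshold in any of these settings, and Ptger2, at 0 with LIPUS, was not among them. Among the other pathway genes, 5 of 68 were higher and 10 lower when genes of at least 1 FPKM were counted whatever their status, beside 9.25% and 9.59% of all such genes. Of the 53 with status OK, 7 and 9 were past the lower threshold, beside 13.6% and 13.4% of all, and 2 and 1 past 2-fold, beside 1.08% and 0.945%. Scaling of the counts and of the shares, and the pseudocount for the pathway counts, were chosen after seeing the data and left the pathway counts at 3 and 4. The median log2 ratio of the members was 0.40 with a pseudocount of 1 FPKM. Ptgs2 and Pla2g4a stayed past 1.5-fold under both pseudocounts, centring and scaling. The table holds no read counts, so no counting interval can be given for low values such as those of Ptger2.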

Other observations

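Of 14 genes of arachidonate supply and recapture, 8 had status OK, 3 with ratios above 0 and 5 below, and their median log2 ratio was -0.09. Fads2 was the one gene of these past 1.5-fold. Fads2, the delta-6 desaturase that starts arachidonate synthesis from linoleic acid, had 12.3 FPKM with LIPUS and 25.7 in Control (log2 ratio -1.07). Of the 3536 genes with a mean FPKM from 10 to 30, 19 (0.537%) had a smaller ratio. Fads1 (20.8 and 28.2 FPKM, log2 ratio -0.44) and the elongase Elovl5 (26.6 and 34.0 FPKM, -0.35) also had ratios below 0, within 1.5-fold, and were named after their values were seen, as was Acsl3, an acyl-CoA synthetase with 18.2 and 13.3 FPKM (log2 ratio 0.45). Lpcat3, which returns arachidonate to phospholipids and was the most abundant gene of this list, had 81.8 and 79.5 FPKM.

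Apart from Lta4h, the lipoxygenase arm, which competes for arachidonate, was listed close to 0. Of its 13 genes, 8 were at 0 in both groups, Alox5 among them, as were 37321 of all 53797 listed genes. Another 4 of the 13 had status NOTEST. Ltc4s was listed at 0 with LIPUS and 2.17 FPKM in Control, and Alox5ap at 0 and 1.22 FPKM. Alox5, Ltc4s and Alox5ap were named after their values were seen. Lta4h, an aminopeptidase as well as a leukotriene hydrolase, was the one gene with status OK, at 37.3 and 41.9 FPKM (log2 ratio -0.17).

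Crem, a cAMP-inducible factor, had 6.84 FPKM with LIPUS and 3.72 in Control, with status NOTEST. Of the 5 cAMP signalling genes with a value but no test, Adcy2, Adcy4 and Adcy9 were also higher with LIPUS, all at low values. Adcy2 had 0.425 FPKM with LIPUS and 0.123 in Control, Adcy4 1.77 and 0.803, and Adcy9 3.42 and 2.64, within 1.5-fold. Adcy7 was lower (3.41 FPKM with LIPUS, 6.09 in Control, log2 ratio -0.84). Among all genes of at least 1 FPKM in a group, whatever their status, 9.25% were at least 1.5-fold higher and 9.59% that much lower. Adcy2 was below 1 FPKM in both groups and so falls outside these shares. These 5 genes were named after their values were seen.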
